A study of Mus musculus with 3 samples.

Results

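The genes of the major histocompatibility complex (MHC) class II antigen presentation pathway were described across the cells of the mouse anorectal junction in untreated, colitic and recovered animals. The 7 genes, chosen by their symbols in the deposited gene table of 31053 genes, were H2-Aa, H2-Ab1, H2-Eb1, Cd74, H2-DMa, H2-DMb1 and Ciita, and each had a row. The study measured RNA in single cells of C57Bl/6 mice, bought at 6 weeks of age, from the anus and distal colon, with the 10X Chromium 3' method, which counts unique molecular identifiers (UMIs), 1 per captured RNA molecule. Day 0 mice were untreated and labelled normal. Day 7 mice (severe colitis) and day 42 mice (recovered) had drunk 3% dextran sulfate sodium (DSS), which damages the epithelium of the gut, for 6 days. All groups shared the strain, the trypsin digestion and the depletion of Annexin V-binding dead cells, so cells lost in these steps are not represented.

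Each day had 1 library made from the pooled tissue of 5 mice. There is therefore no replicate check of any difference between days, and no test was made. Every interval given is a 95% counting interval (exact Poisson for levels, Clopper-Pearson for shares of cells) that covers counting error only and not the variation between mice. The Poisson intervals treat UMIs as independent, although those of a gene can lie in few cells. The libraries held 11037, 14376 and 11667 cells at day 0, 7 and 42, with median depths between 5708 and 6217.5 UMIs per cell, and 139 cell barcodes occurred in more than 1 library. Cell types are those of the deposited cell table, which gives each cell 1 of 29 cluster numbers and 1 of 14 names. Cluster 2, named colonocytes, held 1936, 703 and 1072 cells on the 3 days, and 14, 2 and 10 of these had a barcode that also occurred in another library. Levels are UMIs of a gene per 1000000 UMIs of that cell type and library (CPM). They are not divided by gene length, because the method reads the 3' end, and a gene's level is compared between cell types or days, not with that of another gene. Where values of different genes stand side by side, they are UMI counts with no such scaling.

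In the GENCODE M21 annotation of GRCm38, 5 of the 7 genes lie in the MHC on chromosome 17. They are H2-DMa (chr17:34119541-34139101, + strand), H2-DMb1 (chr17:34153072-34160230, +), H2-Ab1 (chr17:34257689-34269419, +), H2-Aa (chr17:34282744-34287823, −) and H2-Eb1 (chr17:34305867-34316674, +). Ciita lies at chr16:10480059-10528418 (+) and Cd74 at chr18:60803848-60812652 (+). All 7 are protein-coding. H2-DMa overlaps Brd2 and Ciita overlaps Dexi on the opposite strand, H2-Eb1 overlaps the antisense gene Gm20513, which had 2 UMIs in the whole series, and H2-DMb1 has a near-identical neighbour, H2-DMb2. How strand and shared reads were treated in the counting is not given in the sources used here, so the counts of H2-DMa, Ciita and H2-DMb1 are uncertain to that extent.

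As background, class II molecules are pairs of an alpha and a beta chain that carry peptides from endocytosed proteins to the cell surface for CD4+ T cells. H2-Aa and H2-Ab1 encode the chains of I-A, and H2-Eb1 encodes the beta chain of I-E, whose alpha chain gene is not functional in C57BL/6 mice. Cd74 is the invariant chain that escorts new class II molecules and fills their groove, H2-DMa and H2-DMb1 form the H2-M dimer that exchanges its remnant for peptide, and Ciita is the transactivator of the whole group. Dendritic cells, macrophages and B cells make these genes constantly, whereas epithelium and endothelium can make them after exposure to interferon gamma. Ciita does not bind DNA itself but docks on factors that sit on the X and Y boxes of class II promoters.

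The RefSeq promoter table (GRCm38.p6, 250 bases before to 50 after each start) had an entry for 4 of the 7 genes. It had none for H2-Ab1, Cd74 and Ciita. In 3 of the 4 a match to CNNNNAAC, letters like those of the X box, stood 26 or 27 bases before GATTGG, the letters of the Y box. They are shown because these boxes are the shared element through which the group is switched on, with both matches in capitals and each read 5′ to 3′ on the gene's own strand: H2-Aa at chr17:34287837-34287937 (−), H2-Eb1 at chr17:34305743-34305842 (+), H2-DMb1 at chr17:34153064-34153164 (+), and, outside the 7, its neighbour H2-DMb2 at chr17:34145093-34145193 (+).
H2-Aa: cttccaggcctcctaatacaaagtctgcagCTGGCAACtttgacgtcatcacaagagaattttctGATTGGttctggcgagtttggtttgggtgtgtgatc
H2-Eb1: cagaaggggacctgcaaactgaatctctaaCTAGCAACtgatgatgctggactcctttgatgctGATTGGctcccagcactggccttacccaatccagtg
H2-DMb1: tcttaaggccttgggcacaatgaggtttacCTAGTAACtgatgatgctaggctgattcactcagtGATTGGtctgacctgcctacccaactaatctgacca
H2-DMb2: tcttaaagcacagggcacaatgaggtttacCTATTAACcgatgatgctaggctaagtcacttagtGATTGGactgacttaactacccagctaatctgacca

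Both strands were searched, and the letters were chosen after these sequences had been seen. GATTGG alone was found in 16.1% of all 32851 promoters in the table, and CNNNNAAC followed by GATTGG after 20 to 30 bases in 0.527% of them, or 173 promoters. Neither entry for H2-DMa, which has 2 listed starts, held the pair of motifs. A match is a description of the letters and does not show that a factor binds there.

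The first comparison asked where in the tissue the genes were read. Macrophages/APCs, the name the authors gave to macrophages and other antigen-presenting cells, carried by far most of the signal: 81.2% of all UMIs of the 7 genes at day 0, 69.2% at day 7 and 57.1% at day 42, from 0.824%, 1.93% and 0.377% of the cells. Their Cd74 level was 21766 CPM at day 0, 6429 at day 7 and 18851 at day 42. B cells were few (5, 12 and 10 cells) and had Cd74 at 12432, 12923 and 14606 CPM. In the other clusters with at least 50 cells Cd74 was at 441 CPM or less on each day, the highest being keratinocyte cluster 13 at day 42.

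T cells, which in mice are not known to make class II, were taken for comparison as a type that should lack it. Cd74 was at 27.1 CPM (15.2 to 44.8) in T cells at day 0, 45.2 (25.3 to 74.6) at day 7 and 35.1 (14.1 to 72.3) at day 42. The 7 genes summed were at 67.0, 109 and 105 CPM, from 37, 36 and 21 UMIs. H2-Aa had 0 UMIs in T cells at day 0 and day 7, which allows up to 5.43 and 9.04 CPM, and 6 UMIs (30.1 CPM) at day 42. The intervals of Cd74 in T cells overlapped on the 3 days. At day 7 Cd74 was lower than in T cells in keratinocytes (13.6 CPM, 12.96 to 14.2), neutrophils (19.8, 15.7 to 24.5) and red blood cells (1.19, 0.0301 to 6.62) of the same library. The T cell level was thus not shared by these types. In UMIs per cell, Cd74 at day 7 was at 0.127 in T cells, 0.193 in keratinocytes, 0.0549 in neutrophils and 0.00476 in red blood cells. The part of free RNA in these levels was not tested. T cells give a comparison on few UMIs: H2-Ab1 in T cells had 6, 6 and 4 UMIs (10.9, 18.1 and 20.1 CPM, the last with an interval of 5.47 to 51.4), and H2-Eb1 had 4, 3 and 1.

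**Figure D1:**
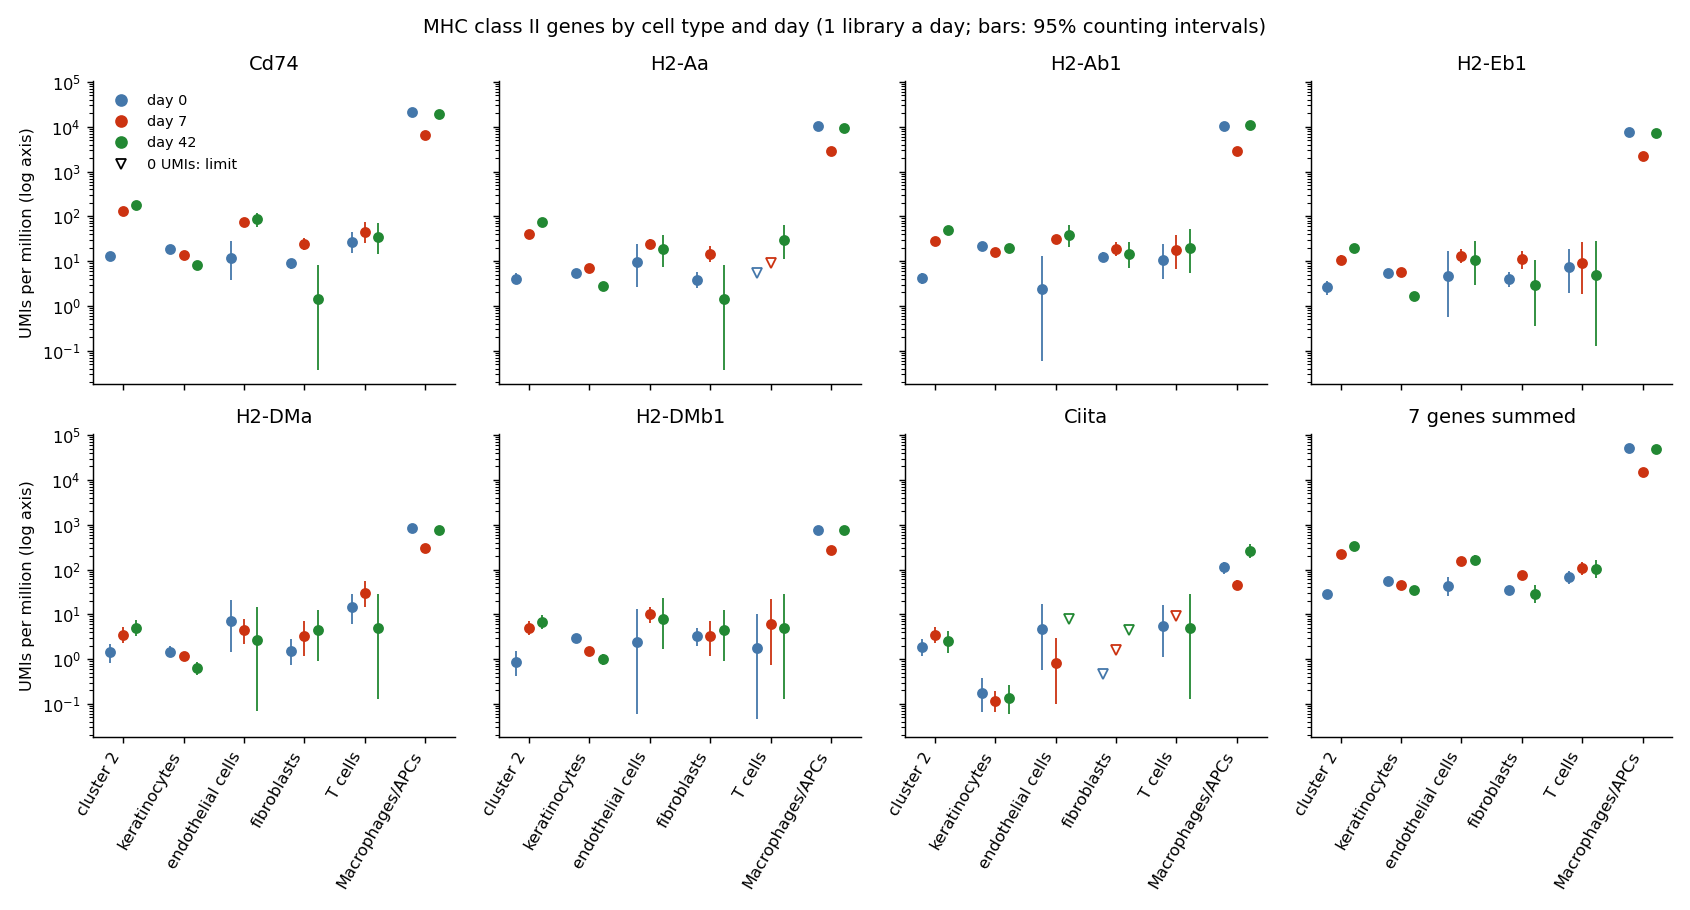
Level of each of the 7 genes and of their sum (vertical axis, CPM, log scale) in 6 cell types (horizontal axis) on day 0, 7 and 42; points are the single library of each day, bars are 95% Poisson counting intervals, and open triangles are limits where no UMI was read. Macrophages/APCs lie far above the other types in each panel, and in colonocyte cluster 2 the points for Cd74 go from 13.03 CPM at day 0 to 129 at day 7 and 179 at day 42.

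Among the epithelial clusters with at least 50 cells on day 0 and a later day, colonocyte cluster 2 had the widest ratio of summed class II level to day 0. Its cells carried the colonocyte markers (10 markers summed: 14246, 16501 and 17454 CPM, with Epcam, Krt8 and Car1 each above 1000 CPM on each day) that go with its name. The 7 genes summed were at 28.0 CPM at day 0 (25.2 to 31.1, 357 UMIs), 219.7 at day 7 (208.7 to 231.1, 1496 UMIs) and 338 at day 42 (322 to 354, 1735 UMIs). At day 0 the sum was below that in T cells (67.0 CPM), and at day 7 and day 42 it was above it. Colonocyte cluster 2 went from 1.42% of the library's class II UMIs at day 0 to 5.20% at day 7 and 15.7% at day 42.

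Cd74, the invariant chain, was the most counted of the 7 in cluster 2. Its level was 13.03 CPM at day 0 (11.1 to 15.2, 166 UMIs), 129 at day 7 (121 to 138, 879 UMIs) and 179 at day 42 (167 to 191, 918 UMIs). The 3 intervals did not overlap, the order was day 0, day 7, day 42, and both later days lay above the interval in T cells. The day 7 level was 9.91-fold (8.38 to 11.8) and the day 42 level 13.7-fold (11.6 to 16.3) that of day 0.

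H2-Aa and H2-Ab1, the chains of I-A, followed the same order. H2-Aa was at 4.08 CPM (3.05 to 5.35) at day 0, 40.2 (35.6 to 45.3) at day 7 and 75.7 (68.4 to 83.7) at day 42, which is 9.86-fold (7.31 to 13.5) and 18.6-fold (13.9 to 25.3) the day 0 level. H2-Ab1 was at 4.16 CPM (3.12 to 5.44), 27.6 (23.8 to 31.8) and 49.3 (43.4 to 55.7), or 6.64-fold (4.87 to 9.18) and 11.8-fold (8.78 to 16.2). For both genes day 0 was lowest and day 42 highest, with no overlap of the intervals. Against T cells, H2-Aa in cluster 2 lay above the interval on both later days, whereas for H2-Ab1 the intervals of the 2 cell types overlapped at day 7 (T cells 6.64 to 39.4) and at day 42. Both were also higher at day 42 than at day 7, H2-Aa 1.88-fold (1.61 to 2.21) and H2-Ab1 1.78-fold (1.47 to 2.17).

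H2-Eb1, the beta chain of I-E, followed the same order. It was at 2.59 CPM (1.78 to 3.64) at day 0, 10.7 (8.40 to 13.5) at day 7 and 19.7 (16.02 to 23.9) at day 42. The fold over day 0 was 4.14 (2.71 to 6.45) and 7.59 (5.08 to 11.6), and its intervals on the 3 days did not overlap. In T cells H2-Eb1 had 3 UMIs at day 7 (9.04 CPM, 1.87 to 26.4) and 1 at day 42 (5.02 CPM, up to 27.9), intervals that cover the cluster 2 levels on both days. In the pool of keratinocytes, with far more UMIs, it was at 5.79 CPM (5.38 to 6.22) at day 7 and 1.69 (1.37 to 2.05) at day 42, below cluster 2, but at day 7 it was at 16.3 CPM (14.4 to 18.5) in keratinocyte cluster 13, above cluster 2, and at 10.6 (8.88 to 12.5) in cluster 9. In cluster 9, 1 of 1007 cells held 101 of the 135 UMIs, so that value rests largely on 1 cell.

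The peptide exchange chains were scarce. H2-DMb1 had 11, 34 and 35 UMIs, giving 0.863 CPM (0.431 to 1.54), 4.99 (3.46 to 6.98) and 6.81 (4.75 to 9.48), and both later days were above day 0 while day 7 and day 42 overlapped. H2-DMa had 18, 24 and 26 UMIs, giving 1.41 CPM (0.837 to 2.23), 3.52 (2.26 to 5.24) and 5.06 (3.31 to 7.42). Day 7 and day 42 again overlapped, and both lay above the day 0 interval. In T cells H2-DMa was at 14.5 CPM (6.25 to 28.5), 30.1 (14.5 to 55.4) and 5.02 (1 UMI), above cluster 2 on the first 2 days and too few to place it at day 42. In the pool of keratinocytes it was at 1.47 CPM (1.09 to 1.94), 1.15 (0.975 to 1.35) and 0.619 (0.434 to 0.857), below cluster 2 at day 7 and day 42, while in keratinocyte cluster 17 it was at 4.07 (1.86 to 7.73) at day 7. H2-DMb1 had 1, 2 and 1 UMIs in T cells (1.81, 6.03 and 5.02 CPM), too few to place its level in cluster 2 above or below them.

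Ciita, the transactivator, had the smallest fold over day 0 of the 7 in cluster 2 on both later days. It had 24, 24 and 13 UMIs, that is 1.88 CPM (1.21 to 2.80) at day 0, 3.52 (2.26 to 5.24) at day 7 and 2.53 (1.35 to 4.33) at day 42, and all 3 intervals overlapped. Its fold over day 0 was 1.87 (1.02 to 3.44) at day 7 and 1.34 (0.628 to 2.75) at day 42, a difference that was not detectable at this depth on day 42. The lowest counting bound among the folds of Cd74, H2-Aa and H2-Ab1 was 4.87 at day 7 and 8.78 at day 42, both above the upper bounds of 3.44 and 2.75 for their transactivator. The other members were not separated from Ciita in this way on both days: the lower bounds were 2.71 and 5.08 for H2-Eb1, 2.86 and 3.92 for H2-DMb1 and 1.30 and 1.89 for H2-DMa. These bounds take no account of UMIs clumped in cells. At day 0 the 10 cluster 2 cells with most Cd74 UMIs held 65.7% of them.

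Over all genes the ratios were taken as log2 of (CPM + 10), which shrinks the ratio of low genes, and a gene was called at a ratio of 1 or more in size if it had at least 5 CPM in either library. Day 7 and day 42 are both set against the same day 0 library. At day 7 the ratios in cluster 2 were 2.59 for Cd74, 1.83 for H2-Aa, 1.41 for H2-Ab1, 0.72 for H2-Eb1, 0.46 for H2-DMb1, 0.24 for H2-DMa and 0.19 for Ciita. Of the 4 members that had enough CPM to be called, 3 (Cd74, H2-Aa and H2-Ab1) were called higher, against 2.53% of all 9188 genes. H2-Aa, H2-Ab1 and H2-Eb1 were under 5 CPM at day 0 and were admitted only through the later library where they were high, as were H2-DMa and H2-DMb1 at day 42, so the counts of both days are an account of the members and no measure of the group. At day 42 the ratios were 3.03, 2.61, 2.07, 1.24, 0.63, 0.40 and 0.08 in the same order, and 4 of 6, H2-Eb1 now included, were called higher, against 1.29% of 9059 genes. The median over all 7 was 0.72 at day 7 and 1.24 at day 42, and over all genes tested 0.037 and 0.024. Without the cells whose barcode occurred in another library the medians over the 7 were 0.72 and 1.25. Between day 42 and day 7, 0 of 6 members passed the threshold, against 0.748% of genes higher and 1.05% lower, and the median over the 7 was 0.44.

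**Figure D2:**
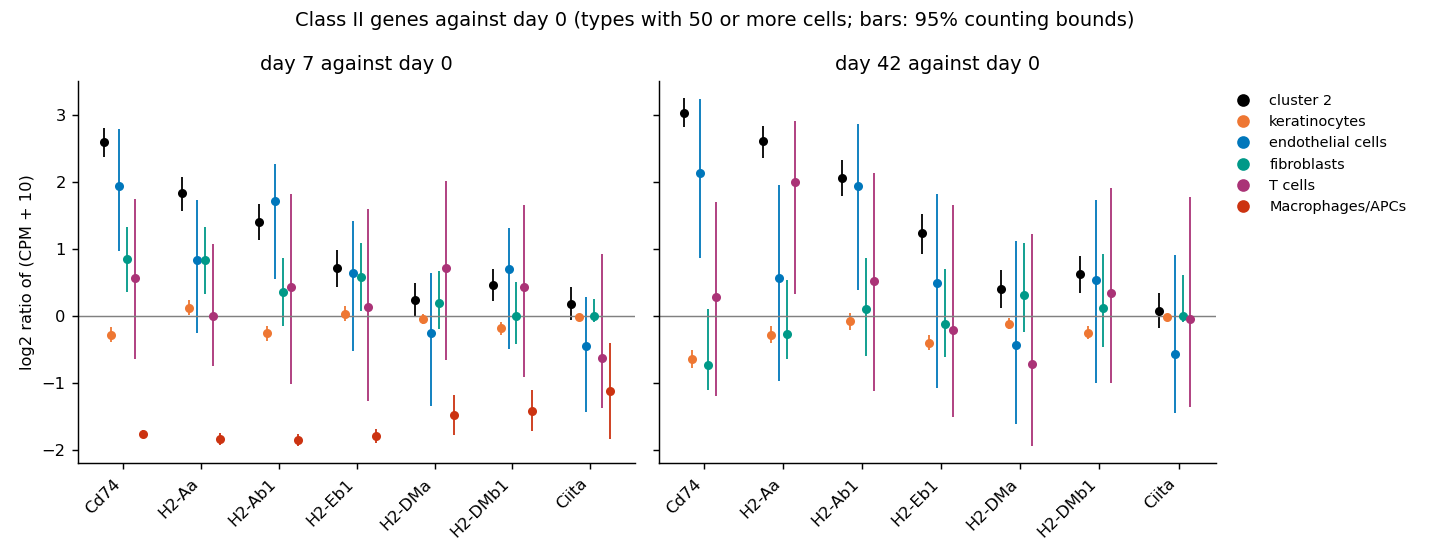
Log2 ratio of (CPM + 10) of each of the 7 genes (horizontal axis) at day 7 (left) and day 42 (right) against day 0 in cell types with at least 50 cells in both libraries; points are ratios of single libraries and bars combine the 95% counting bounds of both. In cluster 2 the ratios run from 3.03 (Cd74) down to 0.08 (Ciita) at day 42, keratinocytes lie near or below 0, and Macrophages/APCs lie below −1 for each gene at day 7.

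More cells of cluster 2, not only more UMIs, carried class II RNA at the later days. A UMI of any of the 7 genes was read in 7.39% of its cells (6.26 to 8.64) at day 0, 22.8% (19.7 to 26.0) at day 7 and 25.7% (23.1 to 28.4) at day 42. In T cells the shares were 10.0%, 20.3% and 10.7%. The median depth was 4419.5, 7194 and 3712 UMIs in cluster 2 and 2064, 2260 and 1393 in T cells, so cells were also thinned to 1000 UMIs each, which left out 36, 15 and 113 cells of cluster 2 and 24, 10 and 31 T cells. Thinned, the shares in cluster 2 were 1.63% (1.11 to 2.31), 9.30% (7.24 to 11.7) and 14.9% (12.7 to 17.3), and in T cells 5.13% (2.49 to 9.23), 10.2% (5.20 to 17.5) and 7.78% (3.18 to 15.4). The day 0 share in cluster 2 was thus below that of T cells, the day 7 share was close to that of T cells while its CPM was higher, so no order of shares is read there, and at day 42 the thinned intervals of the 2 types overlapped.

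Gene by gene, Cd74 was read in 2.89%, 16.5% and 17.8% of cluster 2 cells, and after thinning in 0.474%, 6.10% and 9.91%, against 2.56%, 3.70% and 4.44% of thinned T cells. H2-Aa was read in 1.60%, 10.2% and 12.5% of the cells (thinned 0.474%, 3.34% and 7.09%), and H2-Ab1 in 2.07%, 9.25% and 11.7% (thinned 0.368%, 2.47% and 5.11%). For these 3 genes the order of the shares was that of the levels, before and after thinning. H2-Eb1 was read in 0.826%, 5.26% and 5.32% of the cells, and H2-DMa, H2-DMb1 and Ciita in at most 3.41% on any day.

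**Figure D3:**
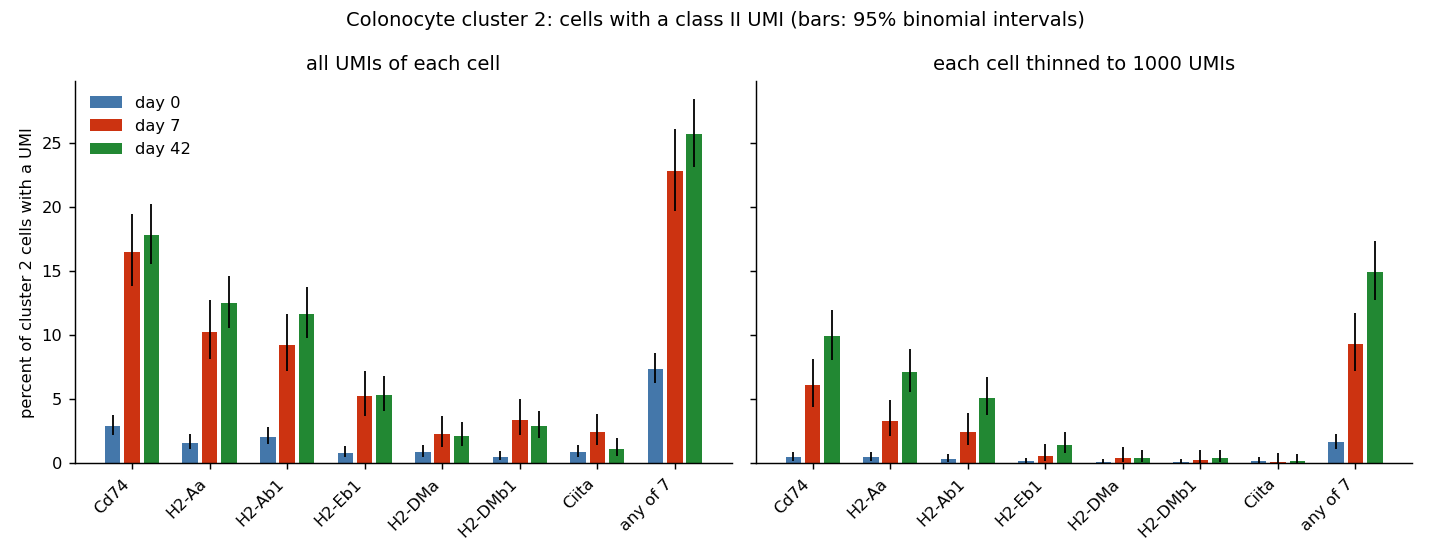
Percent of colonocyte cluster 2 cells with at least 1 UMI of each gene, or of any of the 7 (horizontal axis), on day 0, 7 and 42, from all UMIs (left) and after thinning each cell to 1000 UMIs (right); bars are the single library of each day and error bars 95% Clopper-Pearson intervals. Day 0 bars are lowest for each gene except Ciita after thinning, and for any of the 7 the thinned share goes from 1.63% to 9.30% and 14.9%.

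Within cluster 2 the class II RNA was concentrated in a minority of cells and its genes were read together. Cells with UMIs of 3 or more of the 7 genes numbered 11 (0.568%) at day 0, 51 (7.25%) at day 7 and 86 (8.02%) at day 42. In each library the 10 cells with most class II UMIs held much of the total, 49.0%, 41.0% and 28.2%. After thinning, H2-Ab1 was read at day 42 in 41.2% of the 68 cells with H2-Aa and in 2.36% of the cells without it, and Cd74 in 57.4% and 6.29%. At day 7 the same shares, on 23 cells with H2-Aa, were 30.4% and 1.50% for H2-Ab1 and 52.2% and 4.51% for Cd74. At day 0, with 9 cells holding H2-Aa, H2-Ab1 was read in 0 of them and in 0.370% of the others, and Cd74 in 22.2% and 0.370%. At day 7 and day 42 the I-A chains and their escort were thus read more often in cells with H2-Aa than in cells without it, at equal depth, and at day 0 there were too few cells to say so of H2-Ab1.

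Markers of leukocytes were measured beside these values because a doublet or free RNA could bring class II UMIs into a colonocyte. In cluster 2 the summed pan-leukocyte markers were at 3.61, 32.2 and 6.62 CPM on the 3 days, the neutrophil markers at 1.33, 1327 and 94.8 CPM (in keratinocytes 23.3, 1560 and 186.6), and the macrophage markers at 4.63, 9.99 and 1.36 CPM. At day 42, when class II was highest, 5 of 7 macrophage markers (Csf1r, C1qa, C1qb, C1qc and Adgre1) and all 7 dendritic cell markers were at 0 UMIs in cluster 2, and the Langerhans cell gene Cd207 had 3 UMIs. Cells without a single UMI of a pan-leukocyte, T cell, B cell, macrophage or dendritic cell marker held 64.1%, 85.6% and 98.4% of the class II UMIs of cluster 2. Without the cells that had such a marker the median ratio over the 7 genes was 0.94 at day 7 and 1.47 at day 42. At day 42 a leukocyte marker was read in 2.18% of the class II-positive and 2.13% of the class II-negative cells of cluster 2, at day 7 in 13.8% and 10.7%, and at day 0 in 6.99% and 2.57%.

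Cell quality also differed between the days in cluster 2. The median share of mitochondrial UMIs was 28.8%, 14.0% and 14.5% on the 3 days, and 71.3%, 33.3% and 32.0% of the cells were above 20%. Among cells with 1000 or more UMIs, 500 or more genes and no more than 20% of UMIs mitochondrial (546, 461 and 691 cells), any class II gene was read in 13.4%, 29.3% and 30.8%. The median ratio over the 7 genes in these cells was 0.90 at day 7 and 1.31 at day 42. Both medians were at least as large as in all cells of the cluster (0.72 and 1.24).

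The composition of the class II RNA in cluster 2 was compared with that of Macrophages/APCs by taking each gene's UMIs per 100 UMIs of Cd74. H2-Eb1 stood lower in cluster 2, at 19.9 (13.2 to 29.0), 8.30 (6.45 to 10.6) and 11.0 (8.87 to 13.5) on the 3 days, against 35.4, 34.6 and 38.9 in Macrophages/APCs. H2-Aa was at 31.3, 31.2 and 42.4 against 47.4, 45.1 and 49.4, and H2-Ab1 at 31.9, 21.4 and 27.6 against 46.9, 44.1 and 56.8. Each of the 3 chain genes thus had a lower point value relative to Cd74 in cluster 2 than in Macrophages/APCs on each day. H2-Eb1 stood lower by the widest ratio at day 7 and day 42. The 2 cell types were closest for H2-Aa at day 42 (42.4 and 49.4, from 389 and 1224 H2-Aa UMIs), so that order is less certain. Ciita was at 14.5, 2.73 and 1.42 per 100 Cd74 UMIs in cluster 2 and at 0.514, 0.715 and 1.41 in Macrophages/APCs. At day 42 the H2-M chains were at 2.83 (H2-DMa) and 3.81 (H2-DMb1) in cluster 2 and at 4.15 and 4.11 in Macrophages/APCs. At day 0 the order was the other way, on few UMIs. Cluster 2 then had 18 H2-DMa and 11 H2-DMb1 UMIs beside 166 of Cd74, and Macrophages/APCs had 332 and 295 beside 8566.

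**Figure D4:**
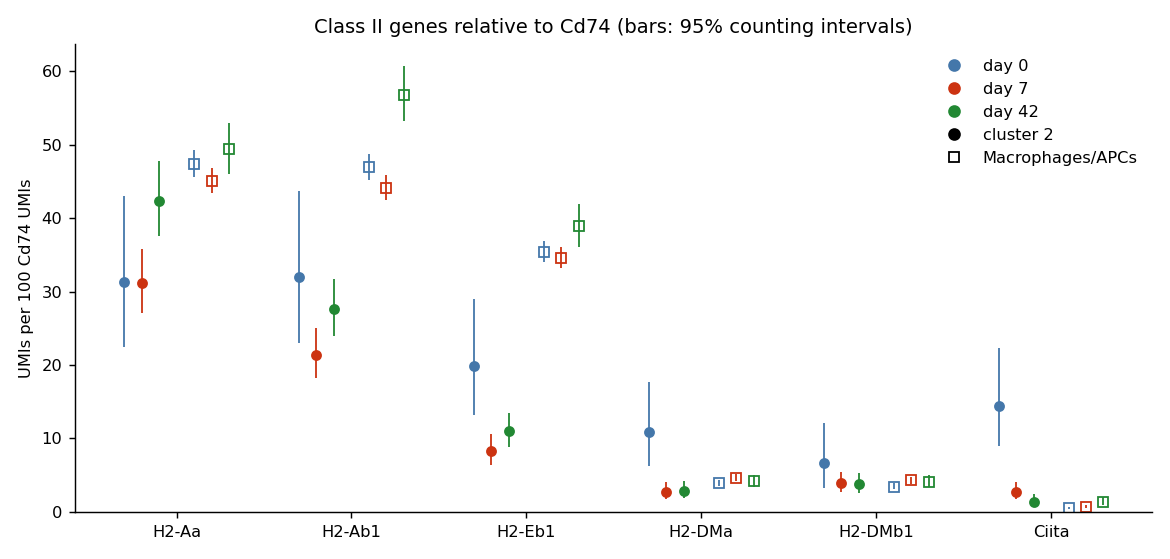
UMIs of each gene per 100 UMIs of Cd74 (vertical axis) in colonocyte cluster 2 (filled circles) and Macrophages/APCs (open squares) on day 0, 7 and 42; bars are 95% counting intervals. H2-Eb1 lies between 8.30 and 19.9 in cluster 2 and between 34.6 and 38.9 in Macrophages/APCs.

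Keratinocytes, the squamous cells of the anal lining, had as a pool a lower summed class II level at both later days than at day 0. The pool was made up of different clusters on each day (cluster 1 had 443, 563 and 3043 cells, cluster 5 had 87, 162 and 2153, and cluster 12 had 51, 1668 and 152), and its clusters did not all go one way. Of its 9 clusters with at least 50 cells on each day, the summed level at day 0 and day 7 was 54.5 and 80.2 CPM in cluster 9, 76.4 and 96.2 in cluster 13, 19.03 and 66.2 in cluster 12, 34.8 and 56.5 in cluster 17 and 77.1 and 85.2 in cluster 8. It was 64.7 and 26.8 CPM in cluster 4, 34.1 and 26.9 in cluster 3, 32.8 and 23.8 in cluster 1 and 12.7 and 8.42 in cluster 5. The counting intervals of these pairs overlapped in clusters 17, 8, 1 and 5. In cluster 9 at day 7, 101 of the 1022 class II UMIs were H2-Eb1 UMIs of 1 cell. At day 42 the sum was above its day 0 value in clusters 13 (485.8 CPM), 1 (43.8), 12 (71.8) and 5 (17.5), the last 2 with overlapping intervals. It was below it in clusters 9 (19.8), 4 (20.05), 8 (50.6), 3 (29.1) and 17 (26.6), the last 2 with overlapping intervals. In the pool the Cd74 level was 18.6 CPM (17.1 to 20.1) at day 0, 13.6 (12.96 to 14.2) at day 7 and 8.34 (7.62 to 9.12) at day 42, below the interval in T cells at day 7 and day 42 and within it at day 0. H2-Aa was at 5.47, 6.91 and 2.80 CPM, H2-Eb1 at 5.35, 5.79 and 1.69, H2-DMb1 at 3.03, 1.53 and 0.998, H2-DMa at 1.47, 1.15 and 0.619, and Ciita at 0.176, 0.117 and 0.138. H2-Aa was thus somewhat higher at day 7 than at day 0 (6.47 to 7.38 against 4.71 to 6.32) and lower at day 42, and the 7 summed were at 55.5, 45.4 and 34.4 CPM. Of the 4 members with enough CPM, 0 were called at day 7, where 1.15% of genes were higher and 0.971% lower, and 0 at day 42, where 2.31% of genes were higher and 1.99% lower. The medians over the 7 in the pool were −0.040 and −0.24. H2-Ab1 was near its day 0 level at day 42 (21.4, 16.3 and 19.8 CPM on the 3 days, a day 42 fold of 0.924, 0.841 to 1.02), whereas Cd74 was at 0.450-fold (0.399 to 0.507). The 10 keratinocytes with most Cd74 UMIs held 90.0%, 49.5% and 77.7% of them on the 3 days. The pooled Cd74 levels and this Cd74 fold thus rest on few cells.

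H2-Ab1 and Cd74 were read as follows in keratinocytes. The shares of cells were 12.8%, 11.5% and 11.8% for H2-Ab1 and 1.60%, 2.98% and 1.09% for Cd74, at median depths of 9168, 11481 and 6542 UMIs. After thinning H2-Ab1 was in 1.89%, 1.66% and 1.70% of keratinocytes and in 1.03%, 2.78% and 2.22% of T cells, with overlapping intervals, so at equal depth its share could not be told from that of T cells. Per 100 Cd74 UMIs H2-Ab1 had 115, 120 and 237 UMIs in keratinocytes, where Macrophages/APCs had 46.9, 44.1 and 56.8. In the keratinocyte cluster 1 H2-Ab1 was at 26.5, 19.8 and 29.6 CPM in 19.2%, 18.8% and 16.2% of the cells, while Cd74 was at 2.20, 1.19 and 6.02 CPM in 0.677%, 1.24% and 0.690%. In keratinocyte cluster 3 H2-Ab1 was at 32.0, 12.7 and 24.6 CPM and Cd74 at 0.260, 7.02 and 1.36. These low counts were spread over many cells: the 10 cells of cluster 1 with most H2-Ab1 UMIs held 24.1%, 16.5% and 12.0% of them.

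Set against the pool of keratinocytes within the same library, cluster 2 changed place between the days. At day 0, 1 of the 7 genes was higher in cluster 2 and the median ratio over the 7 was −0.26, with H2-Ab1 5.15-fold higher in keratinocytes. At day 7 and day 42 all 7 were higher in cluster 2 than in the pool, with medians of 0.42 and 0.99. Single keratinocyte clusters went the other way: at day 7 H2-Ab1 was at 40.7 CPM (36.7 to 45.02) in cluster 8 against 27.6 (23.8 to 31.8) in cluster 2, H2-Eb1 at 16.3 (14.4 to 18.5) in cluster 13 against 10.7 (8.40 to 13.5), and H2-DMb1 at 15.8 (11.03 to 22.02) in cluster 17 against 4.99 (3.46 to 6.98). At day 42 Cd74 was at 441 CPM (387 to 501) in cluster 13 against 179 (167 to 191) in cluster 2. Against the pool at day 42, H2-Aa was 27.0-fold (22.4 to 32.6), Cd74 21.4-fold (19.2 to 24.0) and H2-Ab1 2.49-fold higher in cluster 2. Of the members with enough CPM, 2 of 4 were called higher at day 7 (background 12.7% of genes) and 3 of 6 at day 42 (background 11.4%). At day 42 H2-Aa, H2-Eb1, H2-DMa and H2-DMb1 were under 5 CPM in keratinocytes and were admitted only through cluster 2, so nothing is read from that count. Over the 21 pairs of a gene and a day the median ratio was 0.39, and 15 were higher in cluster 2.

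Fibroblasts gave a similar picture against cluster 2, with medians of −0.015, 0.37 and 1.20 on the 3 days. Their Cd74 level was 8.87 CPM at day 0, 24.0 at day 7 and 1.46 (1 UMI) at day 42, with an interval at day 7 (17.5 to 32.3) that overlapped that of T cells, and Ciita had 0 UMIs on each day. H2-Ab1 was at 12.7, 19.1 and 14.6 CPM. At day 7 the 10 fibroblasts with most class II UMIs held 86.2% of the total, so that day's level rests on a few cells. At day 42, 4 of 6 members with enough CPM were called higher in cluster 2 than in fibroblasts, against 10.8% of genes. Of these 6, all but H2-Ab1 were under 5 CPM in fibroblasts and were admitted only through cluster 2, so the count is an account of the members only.

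Endothelial cells also had a higher Cd74 level at both later days, on far fewer UMIs than cluster 2. Cd74 was at 11.9 CPM (3.85 to 27.7, 5 UMIs in 100 cells) at day 0, 74.2 (63.9 to 85.8) at day 7 and 85.9 (58.8 to 121) at day 42, a fold of 6.26 (2.63 to 19.5) and 7.25 (2.80 to 23.8). H2-Ab1 was at 2.37 CPM (1 UMI), 30.8 and 37.6, H2-Aa at 9.49, 24.7 and 18.8, and H2-Eb1 at 4.74, 12.98 and 10.7. H2-DMb1 was at 2.37 (1 UMI), 10.1 and 8.06 CPM, whereas H2-DMa was at 7.12 (3 UMIs), 4.46 and 2.69 and Ciita at 4.74 (2 UMIs), 0.811 and 0, all with overlapping intervals. Of 6 members with enough CPM, 2 (Cd74 and H2-Ab1) were called higher on each day, against 5.07% of genes at day 7 and 5.72% at day 42. H2-Ab1, H2-Eb1 and H2-DMb1 were under 5 CPM at day 0 and were admitted only through the later library, so nothing is read from these counts. The signal was uneven: at day 7 the 10 endothelial cells with most class II UMIs held 85.9% of them, and any of the 7 was read in 15.7% of the cells, against 24.6% at day 42. The median ratio of cluster 2 over endothelial cells was −0.23, −0.10 and 0.33 by day and 0.08 over the 21 pairs, with 11 higher in cluster 2, so these types could not be placed in an order over all days.

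Macrophages/APCs went the other way at day 7. Cd74 was at 0.295-fold its day 0 level (0.287 to 0.304), H2-Aa at 0.281-fold, H2-Ab1 at 0.278-fold, H2-Eb1 at 0.288-fold, H2-DMa at 0.353-fold, H2-DMb1 at 0.369-fold and Ciita at 0.411-fold (0.275 to 0.621). All 7 were called lower, against 6.92% of genes, and the median ratio was −1.76. The cells given that name differed between the days: at day 7 there were 278, of which 24.5% had no UMI of the 7 genes and 45.3% had 4 or more of them, while at day 0 there were 91, with 4.40% and 79.1%. The 7 macrophage markers summed were at 14722 CPM at day 0 and 8389 at day 7, with the complement genes C1qa (1850 and 263 CPM), C1qb and C1qc much lower but Csf1r (391 and 351), Cd68 (330.3 and 243.5) and Lyz2 (9435 and 7030) closer to day 0. The 7 dendritic markers summed were at 622.5 and 247 CPM, with Xcr1 at 38.1 and 0 but Flt3 at 25.4 and 24.1, and the neutrophil gene S100a8 was at 5.08 and 2049. The Langerhans cell gene Cd207 was at 40.7 and 6.79 CPM. All keratinocyte markers measured were higher at day 7, with Krt14 at 45.7 and 608 and Krt5 at 17.8 and 186. The part of these differences in the lower class II level was not tested. At day 42 only 44 such cells were present, and the 7 genes summed were at 48016 CPM, near the 51704 CPM of day 0. The 7 macrophage markers summed were then at 4956 CPM, lower than at day 7, with Lyz2 at 2660. Csf1r (205) and Adgre1 (76.0 against 81.4) were also lower than at day 7. The other macrophage markers were higher than at day 7: C1qa (654), C1qb (661 against 285), C1qc (403 against 135) and Cd68 (296). The 7 dendritic markers summed were at 653.7 and S100a8 at 7.60.

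Compared with leukocytes other than neutrophils as a whole, cluster 2 stayed far lower. The median ratio over the 7 genes was −8.00, −5.24 and −5.35 on the 3 days, and all 7 were called lower on each day, against 19.4%, 14.3% and 19.3% of genes. In cluster 2, 6 of the 7 at day 0 (all but Cd74), 3 at day 7 (H2-DMa, H2-DMb1 and Ciita) and 1 at day 42 (Ciita) were under 5 CPM and were admitted only through the leukocytes, so nothing is read from these counts. The 7 genes summed were at 21580, 12176 and 19407 CPM in these leukocytes and at 28.0, 219.7 and 338 CPM in cluster 2.

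Other epithelial clusters were ordered by their summed level. At day 7 the colonocyte cluster 22 (279 cells, against 4 and 5 on the other days) had Cd74 at 138 CPM (113 to 167) and the 7 genes at 229.9 CPM (197 to 266), overlapping cluster 2. The colonocyte cluster 7 had 68.3 CPM at day 0, above cluster 2, and 106 at day 42, below it, and its day 0 level rests on few cells, since 10 of its 1809 cells held 76.5% of the UMIs. Secretory colonocytes were at 16.8 CPM at day 0 and 69.7 at day 42. By Cd74 among clusters with at least 50 cells, cluster 2 was the 9th of 21 at day 0 and the 3rd of 20 at day 7, after Macrophages/APCs and cluster 22, whose interval overlapped its own. At day 42 it was the 2nd of 19, after keratinocyte cluster 13, but Macrophages/APCs (44 cells) and cluster 22 (5 cells) then fell under the limit of 50 cells, so the ranks of the days cannot be compared. The highest keratinocyte value, 485.8 CPM for the 7 genes in cluster 13 at day 42, rests on 7 Cd74-positive cells of 106, and 1 cell held 45.8% of the 238 Cd74 UMIs.

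**Figure D5:**
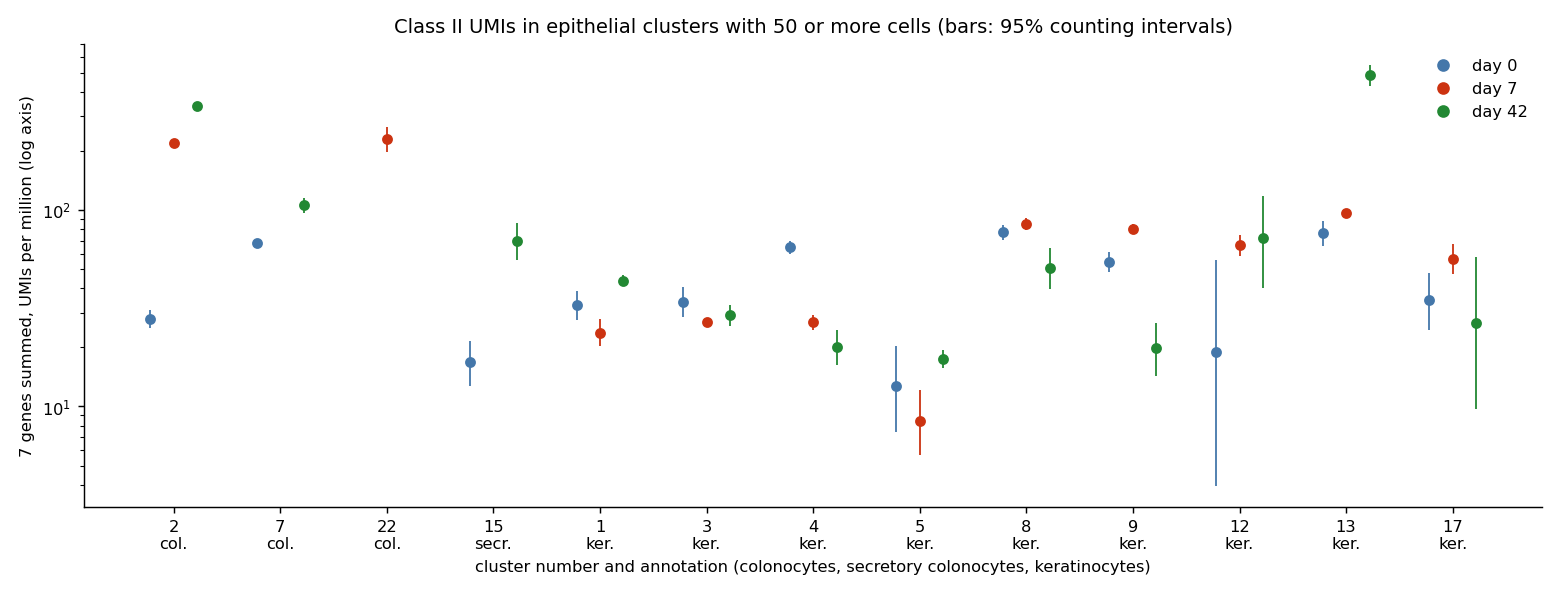
Level of the 7 genes summed (vertical axis, CPM, log scale) in each colonocyte, secretory colonocyte and keratinocyte cluster with at least 50 cells (horizontal axis) on day 0, 7 and 42; bars are 95% Poisson intervals. Cluster 2 goes from 28.0 to 219.7 and 338 CPM, while the keratinocyte clusters other than cluster 13 at day 42 stay below 100 CPM.

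The rest of the class II pathway was read as a list in cluster 2. Of 22 pathway genes (regulators, processing proteases and paralogues), 20 had a row, 14 had enough CPM and 0 were called in either direction at day 7 or day 42, against 2.53% and 1.29% of all genes called higher and 0.871% and 0.254% called lower, shares at which 14 genes would hold few calls or none. Their medians were 0.12 and 0.08. Ctss, the protease that trims the invariant chain, was already at 332 CPM at day 0 and was at 414 and 450 on the later days. Rfx5, a factor on the X box, was at 3.14, 3.08 and 2.53 CPM. H2-DMb2, H2-Oa, H2-Ob and H2-Eb2 had 0 UMIs in cluster 2 on each day, which allows up to 0.235, 0.441 and 0.584 CPM, while H2-DMb2 was at 114, 42.2 and 182 CPM in Macrophages/APCs. Of the neighbouring H2-M beta chain genes, whose promoters printed above hold the same pair of motifs, cluster 2 thus had UMIs of H2-DMb1 only. How reads shared by these near-identical genes were assigned is not known. The promoter entries of H2-Oa, H2-Ob and H2-Eb2 also held the pair.

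Interferon gamma signalling genes were taken as a second list of 21 because the cytokine is the known inducer of class II in epithelium. In cluster 2 at day 7, 18 had enough CPM and 3 were called higher, Gbp2 (13.1 to 156 CPM, log2 ratio 2.84), Socs3 (1.68) and Iigp1 (1.27), against 2.53% of all genes, with a median of 0.36 over the tested genes. Iigp1, Socs1, Gbp3 and Gbp4 were under 5 CPM at day 0 and were admitted only through day 7. The count is thus an account of these genes and no measure of the list. Gbp2 and Iigp1 are interferon-induced GTPases, and Socs3 dampens cytokine receptors. At day 42 only Gbp2 of 15 was called (59.6 CPM, 1.59), against 1.29% of genes, and between day 42 and day 7, 3 of 18 were called lower, against 1.05%. Socs1 was admitted to the 15 only through day 42. Iigp1, Gbp3 and Gbp4 were under 5 CPM at day 42 and were admitted to these 18 only through day 7. Nothing is read from the count of lower genes. Ifng itself was read in T cells at 166, 27.1 and 236 CPM and had 1, 0 and 0 UMIs in cluster 2.

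Co-stimulatory genes, whose products a presenting cell needs to activate a naive T cell, were read at unequal levels in cluster 2. Of the 10 genes listed, 9 had a row, 3 had enough CPM at day 7 and Cd274, which encodes the inhibitory ligand PD-L1, was the one called higher (log2 ratio 1.07, against 2.53% of genes), while 0 of 2 were called at day 42 (1.29% of genes). Cd274 and Icam1 were under 5 CPM at day 0 and were admitted at day 7 only through that library, as was Cd274 at day 42. Nothing is read from these counts. Cd80, Cd86 and Cd40 had at most 4 UMIs each on any day. Icosl, the ligand of ICOS, was at 9.50, 11.9 and 9.54 CPM (121, 81 and 49 UMIs), and Cd274 at 3.92, 19.2 and 10.3 CPM. Of 8 class I genes, 4 were called higher at day 7 (Psmb8 2.05, H2-D1 1.16, B2m 1.06 and Psmb9 1.05) and 2 at day 42 (Psmb8 2.18 and B2m 1.09), against the same 2.53% and 1.29% of genes.

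The cluster 2 cells with a class II UMI were then compared with those without one, at 1000 UMIs per cell, as a description of cells chosen by class II. There were 64 and 624 cells at day 7, 143 and 816 at day 42, and 31 and 1869 at day 0. Among interferon gamma genes with enough UMIs the ratio of positive to negative cells at day 7 ran from 0.595 (Ifngr1) and 0.728 (Irf1) to 7.31 (Igtp), and at day 42 from 0.748 (Jak2) to 3.16 (Gbp2). Gbp2 was 3.16-fold higher in the positive cells on both days (375 and 119 CPM at day 7, 182 and 57.6 at day 42). B2m was 3.44-fold and 1.94-fold higher and Ctss 1.74-fold and 1.73-fold, while at day 0, on few UMIs, B2m was at 3.68-fold, Gbp2 at 18.8-fold (5 UMIs in the positive cells and 16 in the others) and Ctss at 0.814-fold. The 10 colonocyte markers ran from 0.728-fold (Guca2a) to 1.81-fold (Aqp8) at day 7 and from 0.888-fold (Krt8) to 1.93-fold (Car4) at day 42, with Car1, Cdhr5, Vil1 and Slc26a3 between 1.28-fold and 1.65-fold on both days. At day 0 they ran from 0.548-fold (Slc26a3) to 1.57-fold (Krt20). At day 7 they also had 3.55-fold more S100a8, a neutrophil gene, with Ptprc at 31.2 CPM (2 UMIs) against 4.81 (3 UMIs) and Cd52 at 46.9 (3 UMIs) against 20.8 (13 UMIs). At day 42 Lyz2, C1qa and Cd68 had 0 UMIs in both the positive and the negative cells, and Ptprc had 0 and 4.

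Genes whose pattern was most like the mean of the 7 were named by Pearson's r of log2 (CPM + 10) over pairs of a cluster and a day with at least 50 cells. Over all 60 pairs these were Aif1 (0.956), Trem2 (0.950) and Pld4 (0.949), and the value there is set by Macrophages/APCs against the rest. Over the 36 pairs of colonocyte and keratinocyte clusters they were Mgat4c (0.719), Cox7a2 (0.671) and Aldh2 (0.661), with the class II protease Ctss 7th (0.646). The points share libraries and depth and are not independent. Each member against the mean of the others over these 36 pairs gave 0.809 for H2-Eb1, 0.796 for H2-Aa, 0.757 for H2-DMa, 0.727 for Cd74, 0.632 for Ciita, 0.361 for H2-Ab1 and 0.312 for H2-DMb1. H2-Ab1 and H2-DMb1 thus followed the group least across the epithelial clusters.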

How the data were processed

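Single-cell RNA was measured in 1 pooled library for each of 3 days, and groups were taken from the sample labels. The authors deposited a matrix of whole-number counts, unnormalized, with a gene table and a cell table (day, cluster, cell type name). The size factor column of that deposited cell table is a ratio, used only to check the order of the cells. Cell Ranger 3.0.2 and the genome build mm10 are named in the submitters' processing notes. The annotation, cell filter, doublet removal and method of naming cells are not given in the sources used here.

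UMIs were summed per cell type and day and scaled to 1000000 (CPM). Log2 ratios used a pseudocount of 10 CPM, and a gene was called at a size of 1 provided that 1 of the libraries had 5 CPM or more. A gene with 0 UMIs was given a limit of 3 counts. No p-value was computed. Each cell was thinned once to 1000 UMIs to compare shares. All 7 members were named. Genes of 4 lists (class II pathway, interferon gamma signalling, co-stimulation, class I) were named where called in cluster 2 or fixed by name, and genes most alike by Pearson's r among genes with at least 100 CPM in a pair of cluster and day. Members and lists were chosen with earlier results of these data known. The scripts were tested on simulated data. Alternatives used other cells, doublet scores, scalings, pseudocount and depth, and 1 (barcodes in more than 1 library) was chosen after seeing the data. Doublets were otherwise left in. The software was scanpy 1.11.5 (Scrublet), matplotlib 3.10.9, scipy 1.17.1, pandas 2.3.3 and numpy 2.4.6 under Python 3.11.15.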

Additional observations from a re-analysis of the deposited data

Results flagged for a closer look

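The median log2 ratio over the 7 genes at day 7 against day 0 was −0.040 in keratinocytes and −1.76 in Macrophages/APCs, opposite in sign to the 0.72 of colonocyte cluster 2. At day 42 it was −0.24 in keratinocytes and 1.24 in cluster 2. The keratinocyte values pool clusters whose cell numbers differed between the days, and in clusters 9, 12 and 13 the summed level was higher at day 7 than at day 0. In cluster 9, 101 of 1022 class II UMIs at day 7 were H2-Eb1 UMIs of 1 cell. The difference between the cell types was not tested, since each day had 1 library, and all these ratios share the day 0 library.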

How the results depend on the processing

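No result turned its direction among the 6 medians over the 7 genes, except that cluster 2 against endothelial cells, near 0 as reported (0.08), was −0.03 with the filter on cells and ranged up to 0.38. With a pseudocount of 1 CPM the day 7 median was 1.71, the day 42 median 2.53, the median against keratinocytes 1.27 and against leukocytes −5.83. With the mean of CPM per cell the day 42 median was 1.55 and that against leukocytes −4.61. The median against leukocytes was also −5.10 without the 10 cells with most class II UMIs, −4.96 with median-of-ratios size factors and −4.68 after thinning. The cause was not tested. The day 7 median ranged from 0.45 (thinned) to 1.71, and the day 42 median from 1.11 (without the 10 top cells) to 2.53. Cd74, H2-Aa, H2-Ab1, H2-Eb1, H2-DMa and H2-DMb1 kept their sign against day 0 under 10 of 10 alternatives on both days, and Ciita under 9 of 10. Thinning moved 21 of 21 shares beyond their counting interval, the filter on cells 11, and the other alternatives 0. Scrublet at its own threshold marked 420, 0 and 267 cells. Why it marked 0 at day 7 was not examined, and the 5% of cells with the highest scores were left out instead (549, 676 and 573 cells). No paired analysis was possible because each day had 1 library and no replicate. Depth limits the scarce genes H2-DMa, H2-DMb1 and Ciita, which had at most 35 UMIs each in cluster 2 on any day, and T cells, the comparison type that should lack the genes, had at most 37 UMIs of the 7 genes on any day.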

Other observations

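Among enteroendocrine cells at day 0, Cd74 was at 86.1 CPM, above colonocyte cluster 2, from 2 of 78 cells. Lymphatic endothelial cells had Cd74 at 4.90 CPM at day 0, 47.0 at day 7 and 0 at day 42, on 63, 190 and 84 cells. Neutrophils had Cd74 at 19.8 CPM at day 7 and 26.8 at day 42, while red blood cells at day 7 had 1.19 CPM. In the keratinocyte cluster 8 H2-Ab1 was at 33.8, 40.7 and 35.9 CPM on the 3 days.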
